A study of Mus musculus with 4 samples.

Results

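Zbtb16, the gene of the transcription factor PLZF, lies on mouse chromosome 9 from 48651797 to 48836225 (GRCm38, RefSeq gene body of 184429 bp). Its open chromatin was followed here in immature γδ T cells of the fetal thymus with and without c-Maf. Peaks of the 4 Omni-ATAC-seq libraries were merged wherever they shared a base, and the regions whose nearest protein-coding gene body within 100 kb was Zbtb16 were kept, 67 of 171490 regions. The gene was chosen by these same calls: several of its regions had a peak in both libraries without c-Maf and none in the libraries with it. Every comparison of the genotypes at this locus is therefore a description, with no test. With 2 libraries against 2, the smallest exact p would in any case be 0.333.

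The KO libraries came from Maf fl/fl Il7rCre fetuses and the WT libraries from Maf+/+ Il7rCre fetuses, 2 libraries each, so that Cre was present in both genotypes and the floxed allele in KO alone. Il7rCre deletes in lymphoid precursors, so the loss of c-Maf preceded the γδ stage and was not limited to it. All fetuses were at embryonic day 17 to 18 on a C57Bl/6 background after 5 backcross generations. Thymocytes that were CD4- CD8- TCRgd+ CD3e+ CD24+ and CD45RBlo were sorted from pooled fetuses, 15000 to 17000 cells a library. In Omni-ATAC-seq, Tn5 transposase cuts open DNA and tags it, and libraries were amplified for 9 to 11 PCR cycles. Whether the 2 libraries of a genotype were made from different pools is not given in the labels, and the spread between them may be technical only.

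PLZF is a zinc finger protein with a BTB domain that recruits corepressors to DNA. In the mouse it directs the innate-like program of iNKT cells, of innate lymphoid precursors and of several γδ T cell subsets that arise in the fetal thymus. In iNKT cells the gene is induced by strong T cell receptor signals through Egr factors. Zbtb16 is transcribed from its end at 48836225 toward lower coordinates, and that end is called the upstream end here.

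Zbtb16 was a densely open gene in all 4 libraries. KO 1 called 50 of its regions and KO 2 called 48, against 35 in WT 1 and 48 in WT 2. These were 74.6% and 71.6% of its regions in KO, against 52.2% and 71.6% in WT, where the shares over all regions of the genome were 73.7% and 68.7% in KO, against 57.2% and 75.9% in WT. WT 1, the shortest list of the series, was therefore the low library, and the other WT library lay within the KO range. Of the 67 regions, 49 were called in at least 2 libraries (consensus regions) and 18 in 1 library alone. Zbtb16 ranked 75th of 17654 protein-coding genes by number of consensus regions, where the median gene had 4. Inside the gene body it had 21.7 consensus regions per 100 kb, against a median of 5.51 over the 2290 protein-coding genes of at least 100 kb.

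Most consensus regions of Zbtb16 were shared by the genotypes. All 4 libraries called 30 of the 49 (61.2%), against 64.2% of the 122507 consensus regions of the genome. KO-only regions, called in both KO libraries and neither WT library, numbered 5 of 49 (10.2%). Over the genome 4.34% of consensus regions were KO-only. WT-only regions, the reverse, numbered 0 of 49, against 2.89% over the genome. The KO-only count chose the gene, so nothing is read from its distance to the genome share. The mixed pair KO 1 and WT 2 shared as many regions alone as the KO pair did, 5 of 49 (10.2%, against 4.86% over the genome). KO 2 and WT 2 shared 3 (genome share 4.63%), KO 1 and WT 1 shared 1 (1.13%), and KO 2 and WT 1 shared 0 (0.788%). Of the 19 consensus regions that were not called in all 4 libraries, 15 (78.9%) had no call in WT 1, against 68.2% of such regions over the genome.

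**Figure D1:**
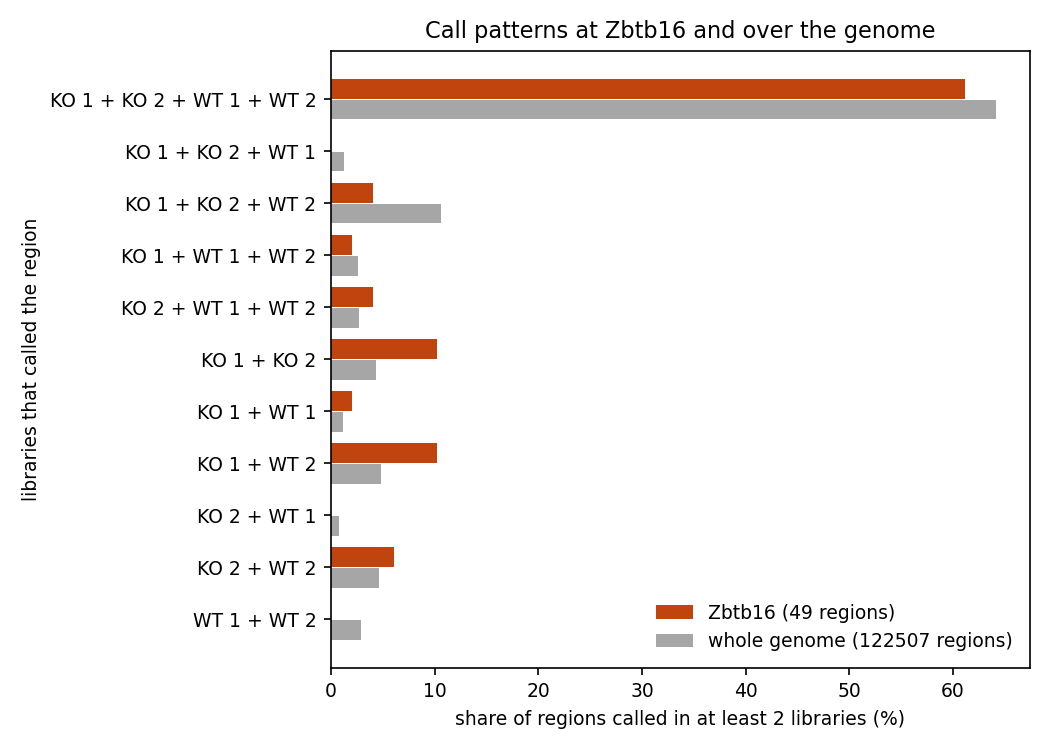
Share of consensus regions (x axis, percent) by the libraries that called them (y axis), for the 49 of Zbtb16 and the 122507 of the genome. The KO 1 + KO 2 and KO 1 + WT 2 bars of Zbtb16 are equal at 10.2%, and the WT 1 + WT 2 bar is empty.

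The height of a peak was given as its summit pileup, the whole number of reads or fragments stacked at the summit, called reads here because the sources do not say which. It was recovered from the authors' fold enrichment and −log10 p, and is not scaled for depth. The background pileup under which peaks were called was lower in KO, at 0.877 in KO 1 and 0.758 in KO 2, against 1.57 in WT 1 and 1.38 in WT 2 (lowest local background on chromosome 9). The lowest summit called at that background held 5 reads in each KO library, against 7 in WT 1 and 6 in WT 2. As plain multiples of the background these were 5.70 and 6.60 in KO, against 4.46 and 4.35 in WT. Fold adds 1 to summit and background, so these multiples are not folds. At the lowest background of chromosome 9 a call in KO thus took fewer reads and a larger plain multiple. At Zbtb16 itself the lowest fold called was 2.47 in KO 1 and 3.4 in KO 2, against 3.04 in WT 1 and 2.98 in WT 2. The lowest background was shared by 2258 and 1875 peaks of chromosome 9 in KO, against 1752 and 2229 in WT. Unscaled reads of KO and WT stand over these unequal backgrounds, lower in KO, and whether read depth followed genotype was not tested. Heights were also ranked by −log10 q within each library, as percentiles among all its peaks.

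The upstream end of Zbtb16 was open in all 4 libraries. The region chr9:48835962-48836481 spans the gene end at 48836225 and was the sole region within 1 kb of either end. Its summit held 94 reads in KO 1 and 110 in KO 2, against 89 in WT 1 and 136 in WT 2. KO and WT values overlapped, with WT 2 highest and WT 1 lowest. The summits lay between 48 bp outside and 8 bp inside the gene end. Fold enrichment over the local background was 22.3 and 23.5 in KO 1 and KO 2, against 18.0 and 22.2 in WT 1 and WT 2. The percentiles were 94.7 and 94.2 in KO and 93.8 and 94.4 in WT, so this region held its rank in every library.

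A region inside the gene ranked as high as the upstream end. It lay at chr9:48795017-48795587, about 40.9 kb into the gene, and was the widest of all 67 at 571 bp. Its summit held 100 reads in KO 1 and 129 in KO 2, against 94 in WT 1 and 142 in WT 2. WT 1 was again lowest and WT 2 highest, and the percentiles stood at 94.5 and 94.8 in KO, against 94.1 and 94.0 in WT. Both KO percentiles were thus above both WT ones, by 0.582 percentage points on average.

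The next regions by mean percentile lay deep in the gene and beyond its lower end. At chr9:48715094-48715470, 121 kb into the gene, summits held 56 and 89 reads in KO 1 and KO 2, against 81 and 145 in WT 1 and WT 2, and the 145 of WT 2 was the highest summit at the locus. The percentiles there were 84.9 and 89.4 in KO and 90.5 and 93.3 in WT, both KO libraries below both WT libraries. At chr9:48646289-48646496, 5.3 kb past the lower end, summits held 55 and 74 reads in KO, against 57 and 85 in WT. The percentiles of this region overlapped, at 84.5 and 86.7 in KO and 84.7 and 84.4 in WT. At chr9:48650221-48650567, 1.23 kb past the lower end, KO summits held 44 and 46 reads, against 56 and 109 in WT. Here too both KO percentiles, 77.9 and 72.0, lay below both WT percentiles, 84.1 and 89.8. In these 5 shared regions of highest mean percentile the summits of the 4 libraries fell within 4 to 81 bp of each other.

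**Figure D2:**
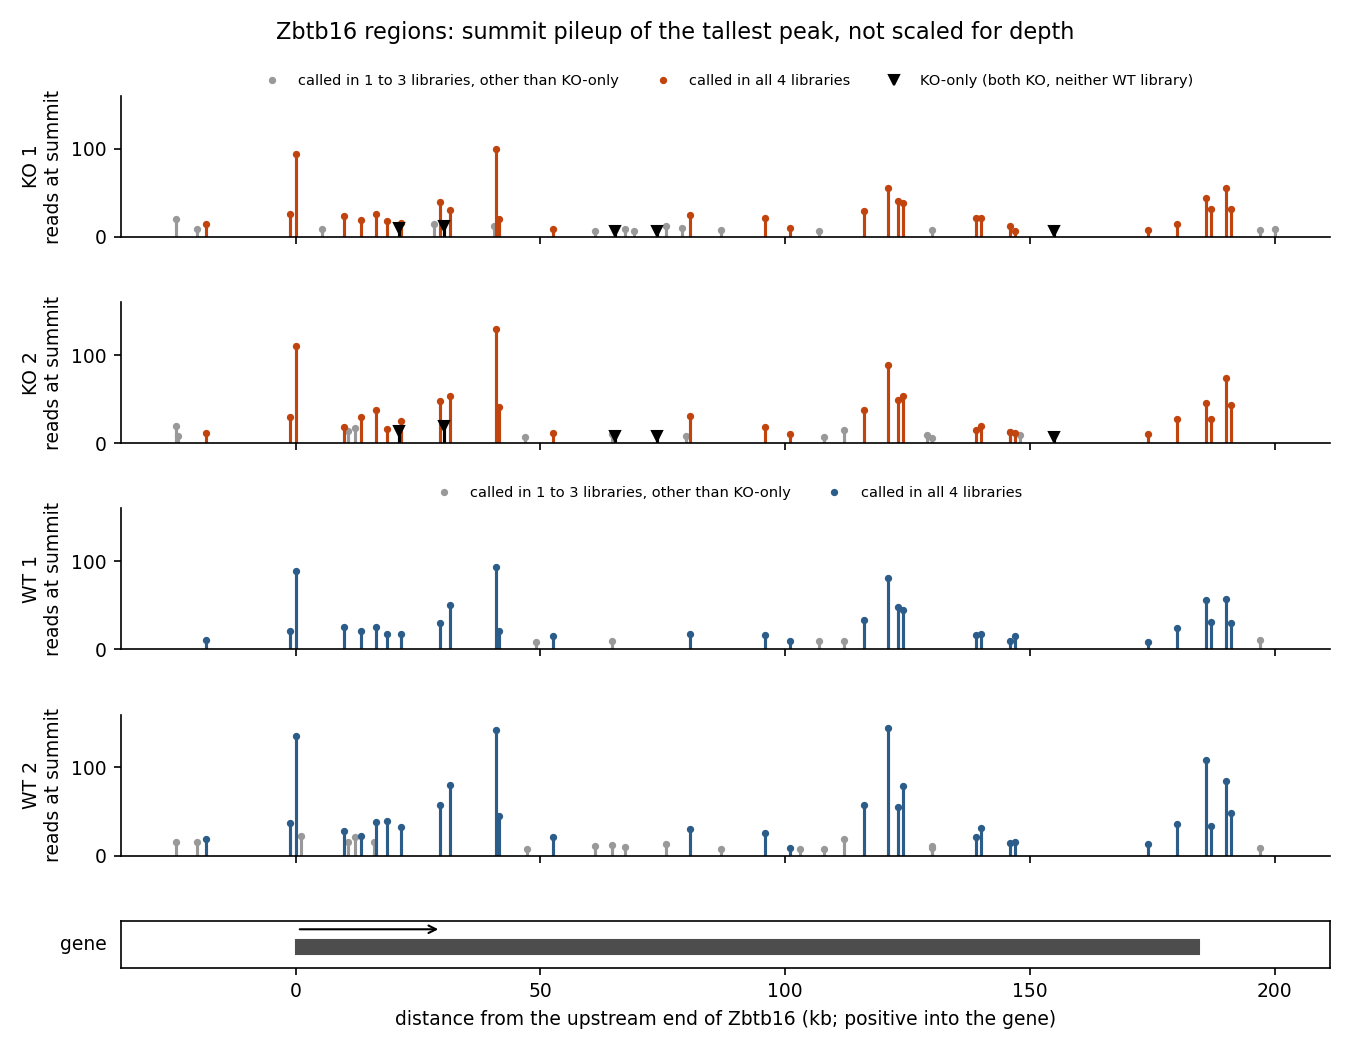
Summit pileup (y axis, reads or fragments, not scaled for depth) of the tallest peak of each Zbtb16 region by its distance from the upstream end (x axis, kb), with KO libraries above WT libraries and the gene as a dark bar. Tall stems stand at the upstream end, near 40.9 kb and at 121 kb in all 4 libraries, and the 5 KO-only regions (triangles) reach 7 to 19.

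The regions of Zbtb16 spread over 225 kb, and 56 of the 67 overlapped the gene body. Below the lower end lay 6 regions and above the upstream end 5. The 46.1 kb of the gene next to the upstream end held 14 consensus regions, and the following stretches of the same length held 9, 10 and 7. Shared regions were unevenly placed, with 10 of them in the first stretch, 2 in the next and 6 in each of the others. The stretch from 46.1 to 92.2 kb into the gene was thus mostly called in some libraries and not in others. Consensus regions were a median of 3.27 kb apart, and the widest stretch without one was 19.3 kb, from 48661869 to 48681205. It holds Gm32280, a gene model inside Zbtb16 that had no region of its own. The outermost regions lay 16.0 kb below and 24.3 kb above the gene, and the next ones outward, nearest to Nnmt and Htr3a, lay 32.8 and 58.0 kb from Zbtb16.

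The 5 KO-only regions all lay inside the gene and were low in both KO libraries. The first stood 21.2 kb into the gene at chr9:48814966-48815068, where summits held 10 reads in KO 1 and 14 in KO 2. Its peak in KO 1 was 70 bp wide, and a region called in all 4 libraries lay 141 bp away. The second, at chr9:48805710-48806084 and 30.3 kb into the gene, had 12 reads in KO 1 and 19 in KO 2, the highest of the 5. The KO peaks of this second region overlapped by 7 bp, with summits 178 bp apart, so the libraries marked nearly separate places. The third, at chr9:48770883-48771007, had 7 and 8 reads, and KO 2 and both WT libraries called the region 447 bp from it. The fourth, at chr9:48762251-48762466, had 7 and 8 reads, and its KO peaks overlapped by 23 bp. The fifth, at chr9:48681205-48681325 and 155 kb into the gene, had 7 reads in each KO library and was the one KO-only region far from other regions, 7160 bp from the nearest. In KO 1 the −log10 q of these regions was 1.69 to 3.11, and their percentiles 2.86 to 14.0. In KO 2 the percentiles were 7.55 to 29.5.

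In reads, not scaled for depth, the KO-only summits were near the lowest heights that could be called in WT. The lowest summit called at Zbtb16 held 7 reads in KO 1 and 6 in KO 2, against 8 in WT 1 and 7 in WT 2. At the background of the nearest WT peak, a call at the limit of the list would have needed 7 to 10 reads in WT 1 and 7 to 13 in WT 2. The KO-only summits held 7 to 12 reads in KO 1 and 7 to 19 in KO 2. The second region, with 12 and 19 reads in KO, would have needed 10 in WT 1 and 13 in WT 2. As fold enrichment, a call would have needed 2.65 to 3.03 in WT 1 and 2.35 to 2.85 in WT 2. Folds at the KO-only regions were 2.9 to 4.21 for KO 1 and 3.69 to 4.55 for KO 2. Each of the 5 exceeded both of its WT limits in both KO libraries. These regions were kept for their KO calls, so this outcome was partly set in advance. At the lowest background of chromosome 9 a KO call took a larger plain multiple of background, a measure unlike these folds. The WT limits also used the background of a WT peak up to 8.3 kb away. How far the limit set the missing WT calls was not tested, since WT pileup outside peaks was not analysed here.

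The KO-only count depended on how a call was defined. When each list was reduced to its top 102718 peaks, the number in WT 1, both the KO-only count (genome 3.88%) and the WT-only count (genome 4.06%) were 0. With peaks of over 100 bp alone, the KO-only count was 0 (genome 4.03%), since the KO 1 peak of each of the 5 regions was 65 to 93 bp wide, and 1 region was WT-only (genome 2.51%). Peaks with a −log10 q of 2 or more gave 3 KO-only (genome 4.51%) and 0 WT-only regions (genome 2.8%). Counting a call where a peak covered 0.5 or more of the region gave 3 KO-only (genome 5.2%) and 0 WT-only regions (genome 3.31%). At a −log10 q of 5 or more, 1 region was KO-only (genome 4.04%) and 0 were WT-only (genome 2.26%). The KO-only region, chr9:48735509-48735707, was none of the 5, and was called in all 4 libraries when every peak counted.

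**Figure D3:**
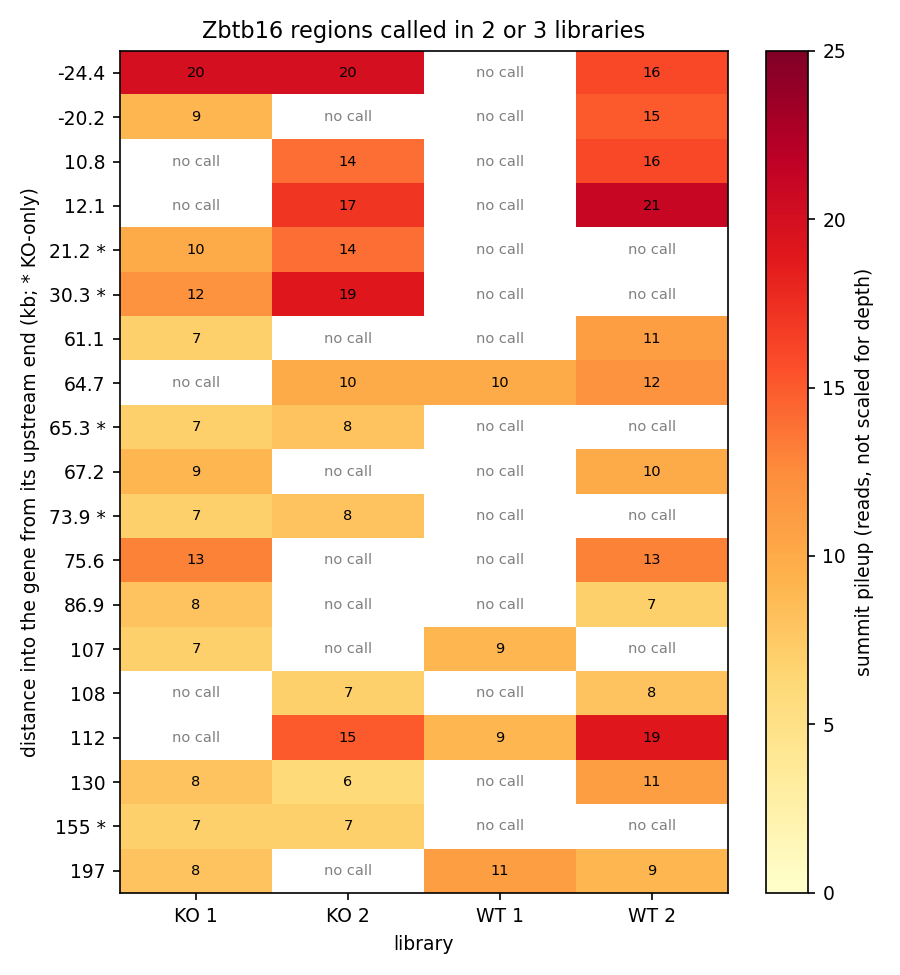
Summit pileup (colour and number; reads or fragments, not scaled for depth) in each library (x axis) of the 19 Zbtb16 regions called in 2 or 3 libraries, ordered by distance into the gene (y axis, kb), with asterisks at the 5 KO-only regions. KO-only cells hold 7 to 19, within the 6 to 21 of the other cells, and WT 1 has the most empty cells.

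Regions shared by mixed pairs were low as well. The 5 called in KO 1 and WT 2 alone had summits of 7 to 13 reads in KO 1, against 7 to 15 in WT 2. Their percentiles were 11.3 to 36.9 in KO 1 and 3.22 to 37.9 in WT 2. The 3 called in KO 2 and WT 2 alone ran between 2.49 and 5.71 in KO 2 by −log10 q, against 1.69 and 6.38 in WT 2. The most enriched of the 19 partly shared regions lay 24.3 kb above the upstream end at chr9:48860574-48860744. Its summit held 20 reads in both KO libraries, against 16 in WT 2 and no call in WT 1. Fold enrichment there was 10.1 and 10.9 in KO 1 and KO 2, against 6.79 in WT 2, so it was higher in both KO libraries than in the WT library that called it.

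Single-library regions were low too, at medians close to those of such regions over the genome in the KO libraries. KO 1 and KO 2 alone called 6 each, against 1 in WT 1 alone and 5 in WT 2 alone. As shares of the 67 regions these were 8.96% and 8.96% in KO, against 1.49% and 7.46% in WT. Over the genome the shares were 10.1% and 5.43% in KO, against 3.2% and 9.84% in WT. Their median −log10 q was 3.13 in KO 1 and 3.53 in KO 2, against 1.88 in WT 1 and 2.91 in WT 2. Genome-wide, the medians of such regions were 3.07 and 3.66 in KO, against 2.66 and 3.55 in WT.

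The 30 regions called in all 4 libraries showed no common direction between genotypes in unscaled reads or in rank, but median fold was higher in KO. Their summits held a median of 24.5 reads in KO 1 and 30 in KO 2, against 22.5 in WT 1 and 36.5 in WT 2. As multiples of the lowest background of chromosome 9 these medians were 27.9 and 39.6 in KO, against 14.3 and 26.5 in WT. Median fold enrichment was 8.12 and 8.88 in KO, against 5.98 and 7.95 in WT. Over all peaks of each list the median fold was 6.39 and 7.84 in KO, against 5.97 and 6.73 in WT. The median percentiles were 66.3 and 60.7 in KO 1 and KO 2, against 56.1 and 63.2 in WT 1 and WT 2. These lay under the medians of all such regions of the genome, at 69.1 and 66.9 in KO, against 60.6 and 69.9 in WT. The median difference of mean percentiles, KO minus WT, was 1.45 over the 30 regions and 1.45 over all 78650, with 18 of the 30 above 0. Without WT 1 it turned to −2.65. Both KO percentiles exceeded both WT percentiles in 4 of 30 regions (13.3%), against 23.8% over the genome, and lay below both in 5 (16.7%), against 13% over the genome.

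Regions that separated the genotypes by rank pointed both ways. Farthest toward KO was chr9:48735509-48735707, 101 kb into the gene, with percentiles of 35.2 and 26.7 in KO, against 9.57 and 10 in WT. Its summits held nearly the same number of reads, 10 and 10 in KO, against 10 and 9 in WT. These reads are not scaled for depth. The local background there was 1.1 and 0.969 in KO, against 2.06 and 1.70 in WT. The lowest background of chromosome 9 was likewise lower in KO, at 0.877 and 0.758, against 1.57 and 1.38 in WT. Fold enrichment at this region was therefore higher in KO, at 5.24 and 5.59, against 3.6 and 3.7 in WT. At chr9:48690226-48690440 the folds were 6.87 and 6.75 in KO, against 3.78 and 5.34 in WT. The percentiles of this region were 50.2 and 38.5 in KO, against 14.6 and 33.6 in WT. Its neighbour chr9:48689568-48689773 went the other way, with 11.1 and 33.6 in KO, against 42.3 and 40.5 in WT. The summits of that neighbour held 7 and 12 reads in KO, against 15 and 16 in WT. Also below WT by rank in both KO libraries was chr9:48783444-48783755, with percentiles of 29.5 and 38.2 in KO, against 45.1 and 57 in WT. Its summits held 9 and 12 reads in KO, against 15 and 21 in WT. By fold the genotypes overlapped there, at 4.99 and 6.9 in KO, against 5.9 and 9.04 in WT. They also overlapped by fold at chr9:48689568-48689773, at 3.83 and 6.2 in KO, against 5.6 and 5.87 in WT. At chr9:48804635-48804831, 31.5 kb into the gene, summits held 31 and 54 reads in KO, against 50 and 80 in WT. The percentiles were 69.9 and 80.0 in KO, against 84.5 and 85.9 in WT. There the folds were lower in KO as well, at 8.28 and 12.5, against 12.7 and 14.6 in WT. A region on the KO side by rank was chr9:48755450-48755793, with percentiles of 69.5 and 70 in KO, against 52 and 64.5 in WT. Its folds were 9.71 and 12.3 in KO, against 6.4 and 9.61 in WT. By reads the genotypes overlapped there, at 25 and 31 in KO, against 18 and 30 in WT.

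**Figure D4:**
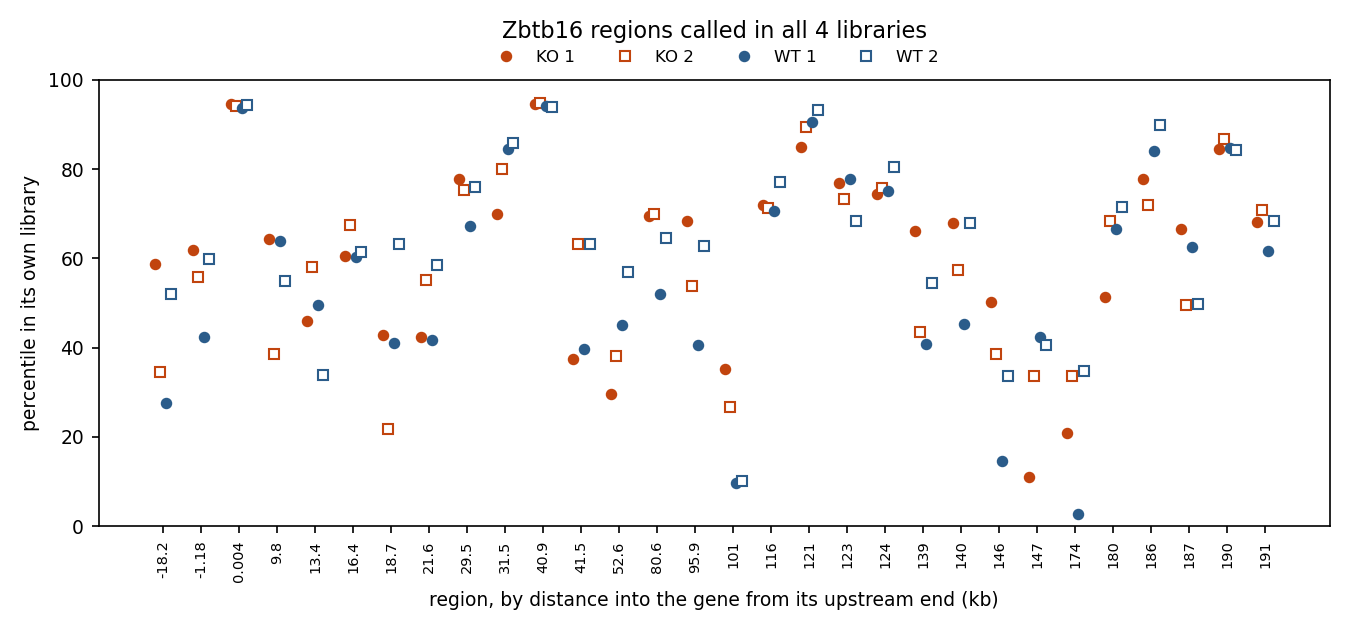
Percentile of the tallest peak within its own library (y axis) for the 30 Zbtb16 regions called in all 4 libraries, ordered by distance into the gene (x axis, kb); circles are replicate 1 and squares replicate 2, red KO and blue WT. Symbols of the genotypes are interleaved in most regions, and the regions at 0.004 and 40.9 kb have 4 nearly equal values.

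The genes with call patterns most like that of Zbtb16 were picked by a distance between patterns. Over the 434 other genes with at least 30 consensus regions, this distance was the sum of absolute differences in the shares of the 11 call patterns of 2 or more libraries, with a median of 0.412. The nearest was Dip2b at 0.138, with 3 KO-only regions and 1 WT-only region among 37. Ly86 followed at 0.155 with 3 KO-only and 1 WT-only among 30, and then Zbtb20, a relative of Zbtb16 with a BTB domain, at 0.166 with 2 KO-only and 0 WT-only among 30. Ephb2 stood at 0.178 with 3 and 1 among 48, and Med13l at 0.193 with 3 and 3 among 71. The distance rests on 4 libraries. Of the 153 genes with 40 to 60 consensus regions, 11 had at least 5 KO-only regions, and 3 of them, Zbtb16 included, had 0 WT-only regions. The reverse, 5 or more WT-only with 0 KO-only, was seen at 0 of the 153. The median of these genes was 2 KO-only and 1 WT-only, so the 2 counts did not start level. With equal numbers of peaks the genome shares were 3.88% KO-only and 4.06% WT-only. The KO-only count chose Zbtb16, so nothing is read from its place among these genes.

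Genes known to act upstream of PLZF held KO-only and WT-only regions in shares near those of the genome. The list of 16 had 20 KO-only (5.04%, genome 4.34%) and 13 WT-only (3.27%, genome 2.89%) regions among 397, and 66.2% called in all 4 libraries. KO-only regions alone were found at 3 of its genes, WT-only alone at 2, both at 6 and neither at 5. Runx1, a factor needed for iNKT development, had 7 KO-only and 3 WT-only regions among 68. Tcf12, the E protein HEB, had 3 and 2 among 46, and Fyn, a kinase of SLAM receptor signals, 2 and 3 among 58. Of the Egr factors that induce Zbtb16 in iNKT cells, Egr2 and Egr3 had 0 of either kind among 11 and 4 regions, and Egr1 had 1 KO-only region among 8. SAP (Sh2d1a) and Slamf6, of the same signal, had 0 of either kind among 4 and 10, and the SLAM receptor Slamf1 had 1 KO-only region among 13.

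The 16 genes listed as partners and corepressors of PLZF had 9 KO-only (4.23%, genome 4.34%) and 12 WT-only (5.63%, genome 2.89%) regions among 213. Hdac4, a histone deacetylase, gave 3 and 6 of these among its 60 regions, and the other 15 genes held 6 and 6. Ezh2, the methyltransferase of Polycomb, had 2 KO-only and 1 WT-only among 8, and Cul3, the ubiquitin ligase scaffold that PLZF carries into the nucleus, 0 and 2 among 17. The corepressor Ncor1 had 0 of either kind among 10.

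Genes that PLZF governs or accompanies in innate-like T cells had 4 KO-only (2.26%, genome 4.34%) and 8 WT-only (4.52%, genome 2.89%) regions among 177, over 15 genes. Cd44, an adhesion receptor of activated cells, had 1 and 2 among 20. Il23r had 0 KO-only and 2 WT-only regions among 15. The costimulator Icos and Il18r1 had 0 of either kind among 22 and 10 regions, and Klf2, a factor of naive T cell traffic, had 1 KO-only among 9. The lists were drawn up with earlier results of these data known, and their shares were not tested against the genome.

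Peaks within 1 kb of a gene end were counted at marker genes of the sorted cells and of other cell types. Of the γδ T cell markers, 8 of 9 were in the gene table, Trdc and Cd3e among them, and 8 of 8 had such a peak in every library. αβ thymocyte markers had one at 6 of 8 genes in every library, Trbc1 and Trbc2 being without. Genes listed as markers of iNKT and MAIT cells had one at 2 of 4 in every library. These were Zbtb16 itself and Slamf6, and Klrb1c and Cd1d1 had none. Innate lymphoid markers had 4 and 5 of 6 in KO, against 5 and 5 in WT, and NK markers 1 of 3 in every library. B cell markers had 2 of 4 in every library. Myeloid markers also had 2 of 4 in every library, without Mpo and Csf1r, and stromal markers 3 and 4 of 4 in KO, against 4 and 4 in WT. Erythroid markers had 1 of 3 in each KO library, against 0 in both WT libraries. These were single-library calls at different genes, Klf1 in KO 1 and Hba-a1 in KO 2. The regions of the list included 0 KO-only (genome 4.34%) and 2 WT-only (25%, genome 2.89%) among 8. Both WT-only regions were assigned to Gata1, which had no gene-end peak in any library. Against the same genome shares, NK markers had 5 KO-only (21.7%) and 2 WT-only (8.7%) regions among 23, all at Eomes. Myeloid markers had 3 (11.1%) and 0 among 27, and stromal markers 4 (9.76%) and 0 among 41. B cell markers had 1 (2.7%) and 2 (5.41%) among 37, and innate lymphoid markers 4 of each (2.61%) among 153. The γδ markers had 3 (2.97%) and 1 (0.99%) among 101, and αβ markers 0 and 1 (3.12%) among 32. The iNKT and MAIT list had 5 (6.02%), all at Zbtb16, and 0 among 83. Marker genes of every cell type had such a peak in at least 1 library, so these counts cannot show how pure the sort was. The part of other cell types in the calls at Zbtb16 was not tested.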

How the data were processed

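Zbtb16 and all lists were chosen with earlier results of these data known. Per the submitters' processing notes, the tools were MACS2 2.1.1, deepTools 3.1.2, bedtools, Picard, Bowtie2 2.3.4.1, cutadapt and Trim Galore, with GRCm38 and mm10 as builds. What each tool did, the Tn5 shift, duplicate handling and peak settings were not stated in the sources used here. The authors deposited 1 peak list per library, so peaks were called library by library. The deposited score was 10 times the −log10 q without decimals for 99.998% of peaks. The deposited fold was taken as a ratio of summit to local background with 1 added to each, so it is not a plain ratio. The deposited −log10 p and −log10 q are within-library values, with q reaching 0.1 in these lists, and the summit was given as an offset from the peak start. Read totals were not analysed here. The libraries held 130935 and 120141 peaks on autosomes and X in KO, against 102718 and 132179 in WT, covering 25.8 and 26.8 Mb in KO, against 20.6 and 29.5 Mb in WT.

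Regions were merged and assigned with Python 3.11.15 and pandas 2.3.3, and a region took its tallest peak per library by −log10 q. Pileup was solved as the whole number for which fold = (pileup + 1)/(background + 1) gave the deposited −log10 p under a Poisson background, within 0.001. A single solution was found for every peak at Zbtb16 and for 98.9% to 99.6% of peaks on chromosome 9. Merging, assignment and pileup were tested on simulated data. Genes named were those of the lists with most KO-only plus WT-only regions, the 5 most like in pattern and the neighbours within 500 kb. Other list members were chosen after their values were seen, as were the shared regions apart in rank. Pileup was added after seeing the data. Gene bodies came from RefSeq (GRCm38.p6) without exons. The planned motif search was not run. Some genes of the lists are counted with their list but not reported here by themselves.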

Additional observations from a re-analysis of the deposited data

How the results depend on the processing

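Over 12 other ways of counting and 7 of ranking, 54 of 67 values stayed within 1.5 times the count, or within 4.54 points (the SD between library medians) of the percentile difference. That margin is wider than the main difference of 1.45, so even the turn to −2.65 without WT 1 counted as unmoved. Apart from all regions at a −log10 q of at least 5, every value that moved was a KO-only or WT-only count. The KO-only count of 5 was 3 with a −log10 q of at least 2, 1 with at least 5, 0 with equal numbers of peaks, 3 with at least 0.5 of a region covered and 0 with peaks of over 100 bp. WT-only was 1 with peaks of over 100 bp, and all regions numbered 39 with a −log10 q of at least 5. Leaving out 1 library gave 5 to 11 KO-only regions (11 without KO 1 or KO 2, 7 without WT 2, 5 without WT 1) and 1 to 5 WT-only regions (5 without WT 1, 1 without KO 1, 2 without KO 2, 1 without WT 2), as a region then had to be called or missed in fewer libraries. The median percentile difference of shared regions ran from −2.65 to 2.11 without 1 library and was 0.208 with equal numbers of peaks. Regions called in all libraries numbered 24 to 32. No paired analysis was possible because no result came from a test. Whether same-numbered libraries shared a pool, litter or day is not given in the labels. Low summits limit the depth: a call at Zbtb16 rested on as few as 6 reads.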

Other observations

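The neighbours of Zbtb16 had fewer regions each. The 14 protein-coding gene models within 500 kb had 49 consensus regions in all, as many as Zbtb16 alone, of which 31 (63.3%) were called in all 4 libraries, 4 (8.16%) were KO-only, against 4.34% over the genome, and 1 was WT-only, against 2.89% over the genome. Nxpe4, 252 kb away, had 2 KO-only and 0 WT-only regions among 15. Htr3a and Htr3b, genes of serotonin receptor subunits 63.0 and 98.8 kb away, had 1 KO-only region each among 2. Nnmt, which encodes nicotinamide N-methyltransferase and lies 44.1 kb away, had 0 KO-only regions and 1 WT-only among 15. Within 1 kb of an end of Htr3a, KO 1 and KO 2 each had a peak, against 0 peaks in WT 1 and WT 2. Rexo2, Rbm7, Usp28 and Zw10 had a peak at a gene end in all 4 libraries and 0 regions of either kind.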
